A study of Mus musculus with 4 samples.

Results

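Integrins and the other receptors listed here are the proteins by which a cell holds on to collagen, laminin, fibronectin and the rest of its extracellular matrix. The data describe 34 of these genes among the 23284 gene symbols counted in Osr1-expressing cells of the mouse limb, with and without functional Osr1. The genes were taken by name and comprised 26 integrin subunits and 8 other receptors. Of the subunits, 15 were listed as mesenchymal, 7 as leukocyte, 3 as epithelial and 1 as platelet integrins. The mesenchymal list is mixed and also holds chains known from other tissues, such as Itga7, Itga10 and Itgb3. The other receptors were 4 syndecans, 2 discoidin domain receptors, dystroglycan and Cd44. All 34 names were found in the count files.

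Cells came from limbs of C57BL/6J embryos at E13.5 and were sorted by their green fluorescence, propidium iodide-negative, before RNA-sequencing. All 4 samples carried the Osr1 GCE allele, in which a cassette of eGFP and CreERt2 is inserted into Osr1 and interrupts it. The 2 Osr1 GCE/+ samples kept one working copy of Osr1 and the 2 Osr1 GCE/GCE samples had none, and each sample was 1 embryo. There was no wild-type group, so heterozygous cells were the reference throughout. Fluorescence follows the Osr1 locus itself, and a difference in which cells were gated cannot be told apart from a difference within the cells.

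Libraries held between 52121596 and 61402140 counts, and 3 counts in a library corresponded to 0.0489 to 0.0576 CPM, the count scaled to library size. Osr1 itself was measured at 81.9 and 79.1 CPM in GCE/+ and at 11.9 and 13.9 CPM in GCE/GCE samples, in the direction of the labels. Of 12 markers of limb mesenchyme, a list that includes Osr1, 11 did not pass in edgeR, among them Pdgfra and Prrx1, and the 12 summed to 21919 and 20002 CPM in GCE/+ and 19340 and 17013 CPM in GCE/GCE. The embryos were not all of one sex: Xist reached 1142 CPM in GCE/GCE replicate 1, whereas the other 3 libraries stayed at or under 2.63 CPM. None of the 34 genes lies on a sex chromosome.

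An integrin is a pair of an alpha and a beta chain, and the alpha chain largely sets what is bound. The alpha 1, 2, 10 and 11 chains bind collagens, alpha 3, 6 and 7 bind laminins, alpha 5, 8, v and IIb recognise the RGD tripeptide of fibronectin, vitronectin and related proteins, and alpha 4 and 9 bind fibronectin, tenascin or VCAM-type ligands. Most of these pair with beta 1, alpha v also with beta 3, 5, 6 and 8, and the leukocyte alpha chains L, M, X and D with beta 2. Syndecans are heparan sulphate proteoglycans that act beside integrins at matrix contacts, discoidin domain receptors are collagen-binding tyrosine kinases, dystroglycan binds laminin, and Cd44 binds hyaluronan.

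To compare levels between genes, CPM were divided by the exonic length of each gene in kilobases (kb). On this scale Itgb1, the shared partner chain, was the most abundant of the 34, at 181 and 182 CPM per kb in GCE/+ and 173 and 177 CPM per kb in GCE/GCE. It alone made up 28.8% of the summed GCE/+ level of all 34 genes, and the 8 highest made up 82.5%. After Itgb1 came Sdc1, with a mean GCE/+ level of 65.5 CPM per kb, and Itga5, the fibronectin receptor alpha chain, at 62.6. Sdc3 (55.0), Itgb5 (55.0), the fibrillar collagen receptor Ddr2 (50.2), Sdc2 (28.1) and Dag1 (22.4) completed the 8. Of the 33 pairs of neighbours in this order, 11 were separate over all 4 samples and 22 overlapped. Sdc1 could not be separated from Itga5, nor Sdc3 from Itgb5 or Itgb5 from Ddr2. In GCE/GCE the same 8 genes were highest, and without division by length 7 of them were.

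**Figure D1:**
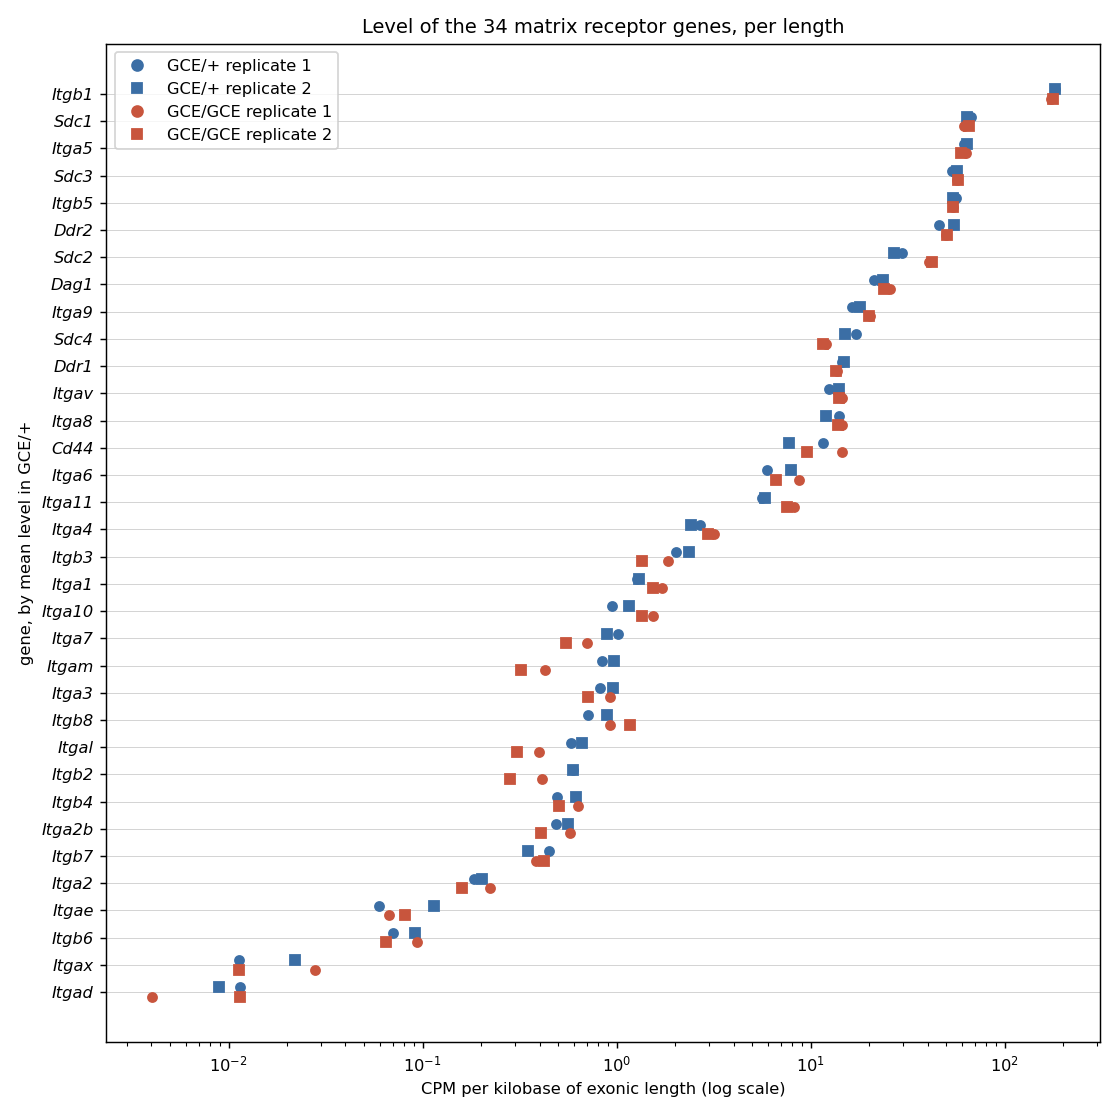
Level of each of the 34 genes in CPM per kb of exonic length on a log axis, with 1 point per sample, ordered by the mean in GCE/+. Itgb1 stands apart at 173 to 182 CPM per kb, 13 genes lie above 10 CPM per kb in GCE/+, and Itgax and Itgad lie at the lower end.

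Below these, Itga9, Sdc4, Ddr1, Itgav and Itga8 had mean GCE/+ levels above 10 CPM per kb, which makes 13 such genes. A further 7 genes lay between 1 and 10 CPM per kb, and 14 lay under 1. Among the 14 were all 7 leukocyte integrins, the platelet chain Itga2b and the 3 epithelial chains Itga2, Itgb4 and Itgb6.

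The genotype comparison asks which genes differ in level between the sorted GCE/GCE and GCE/+ limb cells, taken as a whole. The 4 samples were fitted for all genes at once (edgeR quasi-likelihood test, Benjamini-Hochberg adjusted over the 15645 genes tested, threshold 0.1), and 32 of the 34 receptor genes had enough counts to be tested. Of these, 3 passed: Sdc2 and Itga11 rose in GCE/GCE cells and Itgam fell. Over all genes 1.82% passed, 0.895% as higher and 0.927% as lower. With DESeq2, the tool the study used, 4 of the 32 passed, against 3.18% of all genes, Sdc4 being the additional one as lower. The count was 5 without GCE/+ replicate 2 and 6 without GCE/GCE replicate 1. A fit that leaves out 1 library has a lone sample in that genotype, which is assumed to vary like the other pair, and without a GCE/GCE library the spread was a trend shared by all genes rather than one of each gene. With all 4 samples, both tests combine the spread between 2 embryos per genotype with a spread shared across genes. In edgeR the shared part counted as 6.38 degrees of freedom beside 2 from the samples. Embryos beyond these were not measured, and an exact permutation test of 2 against 2 samples cannot go below p = 0.33.

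Other receptors were separate between genotypes without passing. Counting the 3 that passed, both GCE/GCE samples lay above both GCE/+ samples for 9 of the 32 genes and below for another 9, where over all genes 19.2% lay above and 19.1% below; 7 and 8 of these had not passed. An unadjusted edgeR p under 0.05 was found for 12 of the 32 (37.5%), 6 in each direction and 9 of them not past the adjusted threshold, against 10.5% of all genes. By group, the median log2 fold change was -0.78 over the 5 tested leukocyte integrins, 0.12 over the 15 mesenchymal integrins and 0.02 over the 8 other receptors, and that of all genes was 0.0033. The mesenchymal median depended on the GCE/+ libraries, being 0.02 without replicate 1 and 0.18 without replicate 2.

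**Figure D2:**
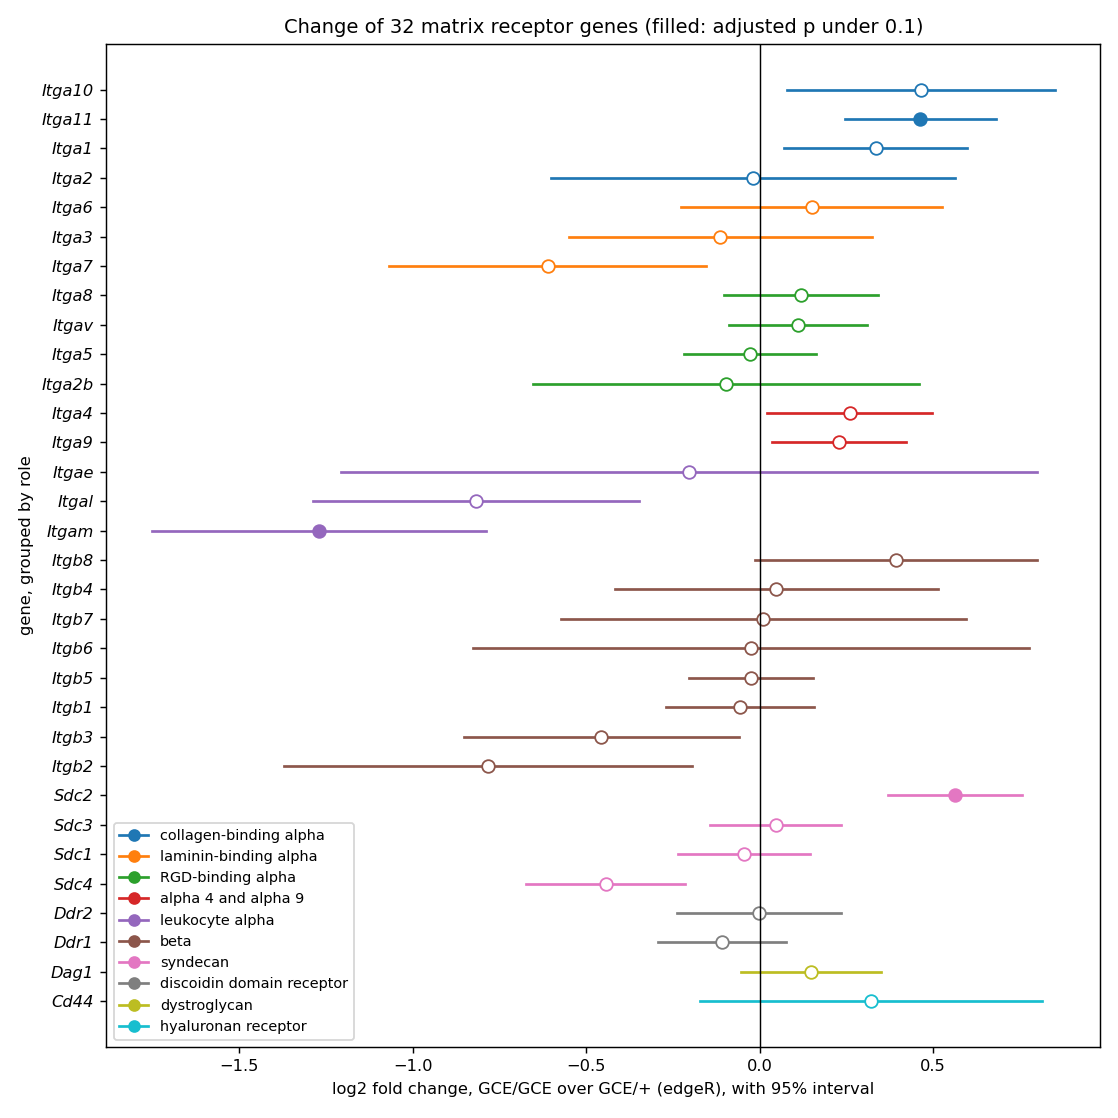
The log2 fold change of GCE/GCE over GCE/+ cells for the 32 tested genes, grouped by role, with the 95% interval of the edgeR fit as a line. Filled points passed the adjusted threshold, and these are Itga11, Itgam and Sdc2. Each interval is for 1 gene and is not adjusted for the number of genes. Itga1, Itga4, Itga9, Itga10, Itga11 and Sdc2 lie to the right of 0 with their whole interval. Itga7, Itgal, Itgam, Itgb2, Itgb3 and Sdc4 lie to the left with theirs.

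Longer genes tended to read higher in GCE/GCE libraries (Spearman's rho of fold change and exonic length 0.26 across 15470 genes, which are not independent replicates). Receptor genes are long: 28 of the 32 were above the median exonic length of all genes tested. With an offset for transcript length in the fit, the mesenchymal median became 0.06, and Itga11, Sdc2 and Itgam still passed, joined by Sdc4.

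Of the 4 collagen-binding chains Itga11 rose and the others did not pass (median log2 fold change over the 4 chains 0.40). Itga11, the chain of fibroblasts that binds fibrillar collagen, was at 27.8 and 28.9 CPM in GCE/+ and at 40.7 and 37.4 CPM in GCE/GCE. The GCE/GCE samples were both higher, by 1.38-fold (log2 fold change 0.46, SE 0.10, edgeR adjusted p = 0.078, DESeq2 adjusted p = 0.012). The call was lost in several settings, and for example the edgeR adjusted p was 0.165 without GCE/+ replicate 1, 0.220 without GCE/GCE replicate 1 and 0.150 when no filter on low counts was used. The gene lies on chromosome 9, 62677826 to 62783982 on the plus strand (GRCm38).

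Itga10, known from cartilage, was at 4.75 and 5.83 CPM in GCE/+ and at 7.77 and 6.81 CPM in GCE/GCE (log2 fold change 0.46, SE 0.17, edgeR adjusted p = 0.340). Itga1, which prefers the network collagens of basement membranes, was at 14.0 and 14.2 CPM against 18.7 and 16.9 CPM (log2 fold change 0.33, SE 0.12, edgeR adjusted p = 0.305; 0.18 on the log2 scale with transcript length offsets). In both genes the genotypes did not overlap, and neither passed. The 4th chain, Itga2, a receptor of epithelia and platelets, was at 1.13 to 1.58 CPM in all samples, with overlapping genotypes.

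Markers of cartilage and tendon differed in the same samples. All 12 cartilage markers were higher in both GCE/GCE samples, 7 of them past the threshold, and they summed to 943 and 1382 CPM in GCE/+ and to 1973 and 2120 CPM in GCE/GCE. The 6 tendon markers summed to 408 and 344 CPM against 478 and 442 CPM, with 3 higher and 1 lower past the threshold. Neither list has a marker at 0 in these cells, and their part in the values of Itga10 and Itga11 was not tested. In bulk RNA, more cells of a type and more RNA per cell cannot be told apart.

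Laminin-binding chains showed no common direction. Itga7, the laminin receptor of skeletal muscle, was at 4.19 and 3.71 CPM in GCE/+ and at 2.91 and 2.27 CPM in GCE/GCE (log2 fold change -0.61, SE 0.20, edgeR adjusted p = 0.267), below without overlap but not past the threshold. Of the 9 muscle markers, 5 were above in both GCE/GCE samples and none below, where over all genes 19.2% lay above and 19.1% below. None of these markers passed in edgeR, and they summed to 100 and 116 CPM in GCE/+ and 134 and 119 CPM in GCE/GCE. The part of muscle cells in the Itga7 values was not tested. Itga6, at 25.8 and 34.5 against 37.8 and 29.0 CPM, and Itga3, at 4.32 and 5.01 against 4.86 and 3.76 CPM, varied more between embryos of one genotype than between genotypes.

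None of the RGD-binding chains passed. Itga5 was at 269 and 279 CPM in GCE/+ and at 276 and 262 CPM in GCE/GCE (log2 fold change -0.03, 95% interval -0.22 to 0.16, edgeR adjusted p = 0.970). Itgav was at 87.8 and 98.2 against 102 and 99.1 CPM, and Itga8 at 81.6 and 69.8 against 84.3 and 80.2 CPM. The intervals of their log2 fold changes ran from -0.09 to 0.31 and from -0.10 to 0.34, so a change of the size seen for Sdc2 lay outside all 3 intervals.

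Itga4 and Itga9 did not pass. Itga9, the tenascin-binding chain, was at 117 and 129 CPM in GCE/+ and 145 and 143 CPM in GCE/GCE (log2 fold change 0.23, SE 0.08, edgeR adjusted p = 0.348; 0.15 on the log2 scale with transcript length offsets). It passed only without GCE/+ replicate 2 (edgeR adjusted p = 0.098). Itga4 was at 26.4 and 23.7 against 31.1 and 28.9 CPM (log2 fold change 0.26, SE 0.10, edgeR adjusted p = 0.412; 0.12 on the log2 scale with transcript length offsets). Exons of Itga4 share 1124 bp with Cerkl on the opposite strand, and the library kit does not mark strand.

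When the 12 alpha chains that can pair with beta 1 were treated as 1 pool of CPM per kb, RGD-binding chains held 71.7% and 69.9% of it in GCE/+ and 66.9% and 67.9% in GCE/GCE. The collagen-binding chains held 6.52% and 6.60% in GCE/+ and 8.49% and 8.19% in GCE/GCE. The shares of alpha 4 with alpha 9 were 15.5% and 15.9% against 17.1% and 17.8%. The shares of these 3 classes were separate between genotypes, and the laminin-binding share was not, at 6.32% and 7.60% against 7.50% and 6.13%. Shares sum to a fixed total, so a lower share is not by itself a lower level. No RGD-binding gene was itself below without overlap. The summed pool was 123 and 128 CPM per kb in GCE/+ and 137 and 129 in GCE/GCE. Shares describe mRNA only, and alpha v was counted whole although it has other partners. They were not corrected for the trend of fold change with exonic length given above.

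**Figure D3:**
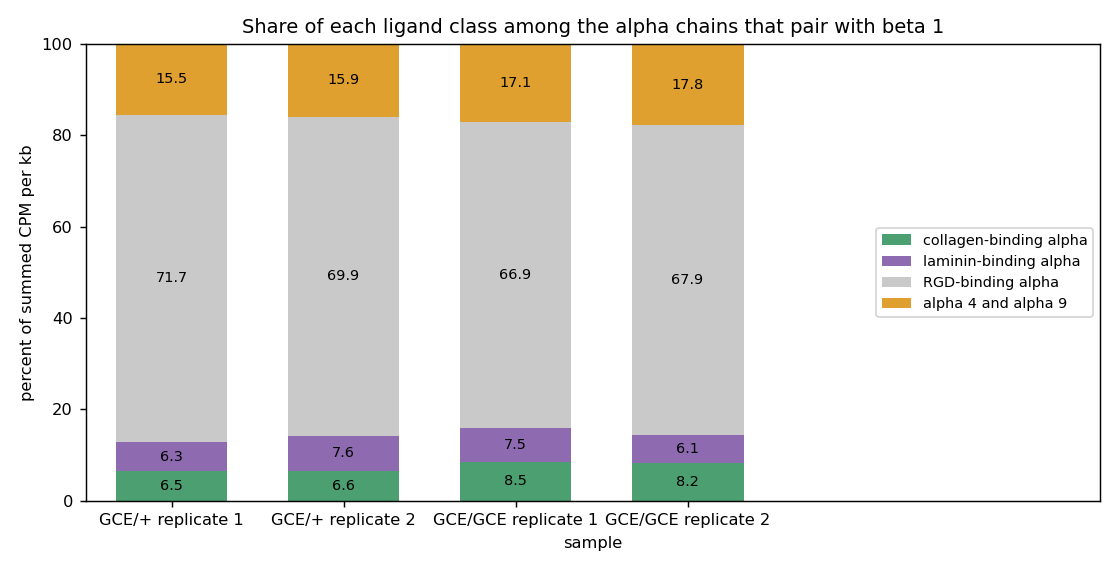
Stacked bars give, for each of the 4 samples, the percent of summed CPM per kb held by each ligand class among the 12 alpha chains that can pair with beta 1. The collagen-binding part is 6.52% and 6.60% in GCE/+ and 8.49% and 8.19% in GCE/GCE.

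The abundant beta chains of mesenchyme did not pass either. Itgb1 was at 692 and 694 CPM in GCE/+ and 660 and 673 CPM in GCE/GCE (log2 fold change -0.06, 95% interval -0.27 to 0.16, edgeR adjusted p = 0.943). Itgb5, a partner of alpha v for vitronectin, was at 189 and 184 CPM against 183 and 183 CPM (log2 fold change -0.03, 95% interval -0.20 to 0.15, edgeR adjusted p = 0.969). For both genes the GCE/GCE samples were below without overlap, and for Itgb5 the nearest samples of the genotypes were almost equal.

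The minor partners of alpha v did not pass. Itgb3, known from platelets, osteoclasts and endothelium, was at 11.7 and 13.6 CPM in GCE/+ and at 10.7 and 7.81 CPM in GCE/GCE (log2 fold change -0.46, SE 0.17, edgeR adjusted p = 0.369). The log2 fold change was -0.71 without GCE/GCE replicate 1, the 1 alternative in which it passed (edgeR adjusted p = 0.031), and -0.25 without GCE/GCE replicate 2. Itgb8, which serves to activate latent TGF-beta, was at 5.94 and 7.46 against 7.79 and 9.78 CPM (log2 fold change 0.39, 95% interval -0.01 to 0.80). Endothelial markers summed to 120 and 96.5 CPM in GCE/+ and to 97.2 and 80.8 CPM in GCE/GCE, with 7 of the 8 below 0 in fold change and none past the threshold in edgeR. Their part in the Itgb3 values was not tested.

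The leukocyte integrins had the lowest median, and 1 of the 5 tested passed. Itgam, the alpha M chain of macrophages and other myeloid cells, was at 4.14 and 4.76 CPM in GCE/+ and at 2.10 and 1.58 CPM in GCE/GCE. Both GCE/GCE samples held less than the lower GCE/+ sample, and the gene fell to 0.414 of the GCE/+ level (log2 fold change -1.27, SE 0.21, edgeR adjusted p = 0.039, DESeq2 adjusted p = 0.000883). It passed under all 12 alternative fits, with log2 fold changes between -1.49 and -1.08. Itgam lies on chromosome 7, 128062640 to 128118491 on the plus strand (GRCm38), next to Itgax and Itgad.

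Itgal, the alpha L chain shared by most leukocytes, was at 3.71 and 4.24 CPM in GCE/+ and at 2.55 and 1.96 CPM in GCE/GCE (log2 fold change -0.82, SE 0.21, edgeR adjusted p = 0.131). Itgb2, their common beta chain, was at 1.77 and 1.76 against 1.22 and 0.833 CPM (log2 fold change -0.78, SE 0.26, edgeR adjusted p = 0.268). In both the genotypes were separate, yet neither gene passed with all samples. Without GCE/GCE replicate 1 both did, with edgeR adjusted p = 0.023 for Itgal and 0.097 for Itgb2.

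The remaining leukocyte chains are Itgb7, Itgae, Itgax and Itgad. Itgb7 was at 1.20 and 0.937 CPM in GCE/+ and at 1.03 and 1.13 CPM in GCE/GCE, and Itgae at 0.230 and 0.440 against 0.258 and 0.310 CPM. Both overlapped between genotypes. Itgax had 3 to 7 counts per library and Itgad 1 to 3, too few to be tested, and no fold was computed for them.

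The macrophage and leukocyte markers moved with Itgam. All 18 markers in the files, among them Ptprc, Csf1r, Emr1 and C1qb, were lower in both GCE/GCE samples and 15 passed (median log2 fold change -0.97). Their sum was 463 and 472 CPM in GCE/+ and 291 and 205 CPM in GCE/GCE. GCE/GCE replicate 2 was the lowest sample for the marker sum and for Itgam, Itgal and Itgb2. In GCE/GCE replicate 1 the sum was 62.2% of the GCE/+ mean and Itgal 64.1%, Itgb2 69.2% and Itgam 47.2% of theirs. In GCE/GCE replicate 2 the sum was 43.9% and the genes were 49.3%, 47.2% and 35.6%. As a share of the marker sum, Itgam was 0.893% and 1.01% in GCE/+ and 0.723% and 0.773% in GCE/GCE. Itgal was 0.801% and 0.900% against 0.877% and 0.956% of it, and Itgb2 0.383% and 0.373% against 0.421% and 0.406%.

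Lymphocyte markers were scarce: 4 of the 9, among them Cd3e of T cells and Ms4a1 of B cells, had at most 3 counts in every library, and the 9 summed to 4.73 and 3.29 CPM in GCE/+ and to 3.74 and 2.83 CPM in GCE/GCE. None of the 18 macrophage markers was at 0. Fewer macrophages among the sorted cells and less RNA per macrophage cannot be told apart here, and the part of such cells in each integrin value was not tested.

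**Figure D4:**
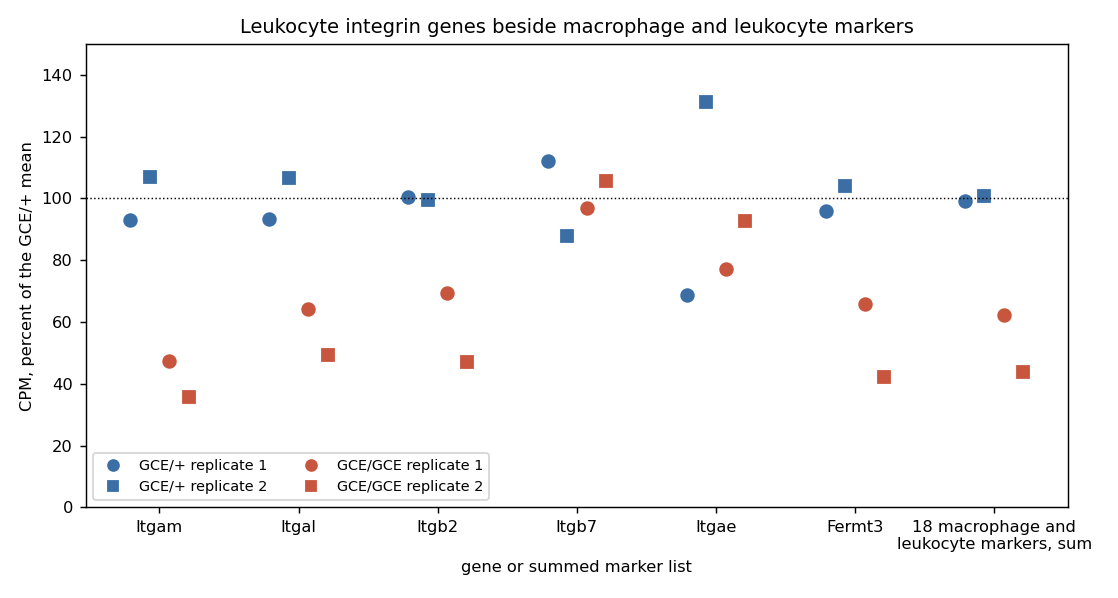
Each point is the CPM of 1 sample as a percent of the GCE/+ mean, for 5 leukocyte integrin genes, the leukocyte adaptor Fermt3 and the sum of 18 macrophage and leukocyte markers. In GCE/GCE, Itgam, Itgal, Itgb2, Fermt3 and the marker sum lie at 35.6% to 69.2%, whereas Itgb7 and Itgae overlap the GCE/+ points.

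The region before the transcription start is shown for the genes that passed in either tool and have an entry in the RefSeq promoter table, Itgam and Itga11 here and Sdc4 further on; 25 of the 34 genes have one. Sdc2, Itgal, Itgb2, Itgb3, Itga6, Itga7, Itgad, Itgae and Itgb4 do not. The 250 bases before the start were searched on both strands for GAGGAA, a purine box of the kind ETS-family factors such as PU.1 read in myeloid genes, ACAGTAGC, the core bound by Osr zinc fingers in vitro, the GC box GGGCGG and TATAAA. Matches are in capitals, build GRCm38.p6, and none of the motifs overlap in these windows. The starts are those of RefSeq, whereas the gene positions in this text came from GENCODE. The Itga11 window therefore runs past the gene start of 62677826 given above.
Itgam, chr7:128062390-128062639, plus strand: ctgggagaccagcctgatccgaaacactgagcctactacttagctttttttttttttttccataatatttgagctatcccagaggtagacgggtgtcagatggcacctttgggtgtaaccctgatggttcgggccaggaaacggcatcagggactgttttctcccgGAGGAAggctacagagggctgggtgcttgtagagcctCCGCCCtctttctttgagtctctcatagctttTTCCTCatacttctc
Itga11, chr9:62677605-62677854, plus strand: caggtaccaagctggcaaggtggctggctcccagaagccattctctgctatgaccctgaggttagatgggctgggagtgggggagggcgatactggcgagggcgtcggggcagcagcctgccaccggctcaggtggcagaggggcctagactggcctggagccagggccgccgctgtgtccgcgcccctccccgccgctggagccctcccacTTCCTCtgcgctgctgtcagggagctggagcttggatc
The Itgam window held the purine box 84 and 15 bases before the start, once on each strand, and a GC box 47 bases before it, while the Itga11 window held 1 purine box, 38 bases before the start. The purine box occurred in 10 of the 31 windows of the receptor genes (32.3%) and in 23.3% of all 32851 windows. The Osr core was found in none of the 31 and in 0.749% of all, the GC box in 32.7% and TATAAA in 12.4% of all. A match is a run of letters and says nothing of binding.

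The platelet and epithelial integrins were low, and their genotypes overlapped. Itga2b, which marks platelets and their precursors, was at 1.67 and 1.93 CPM in GCE/+ and 1.96 and 1.40 CPM in GCE/GCE, and Itgb4, the hemidesmosome chain of basal epithelium, at 3.14 and 3.92 against 4.05 and 3.23 CPM. Itgb6 was at 0.392 to 0.568 CPM over the samples. The 7 platelet markers summed to 12.9 and 12.0 CPM against 9.30 and 9.28 CPM. Pf4, also made by macrophages, was the 1 that passed, as lower. Of the 4 platelet markers tested, 3 had a log2 fold change above 0 and 1 below, with a median of 0.20. Epithelial markers summed to 23.2 and 26.1 against 29.4 and 27.7 CPM, and none of the 8 passed in edgeR.

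The syndecans, highly expressed as a family, gave 1 gene that rose, 1 whose call depended on the tool and 2 that did not pass. Sdc2 was at 104 and 94.5 CPM in GCE/+ and at 144 and 149 CPM in GCE/GCE. The GCE/GCE samples were well above, by 1.48-fold (log2 fold change 0.56, 95% interval 0.37 to 0.76, edgeR adjusted p = 0.032, DESeq2 adjusted p = 1.97e-05). Sdc2 passed under all 12 alternative fits, with log2 fold changes between 0.50 and 0.63. It lies on chromosome 15, 32920723 to 33034935 on the plus strand (GRCm38).

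Sdc4, the syndecan of focal adhesions, was at 42.0 and 37.0 CPM in GCE/+ and at 29.6 and 28.5 CPM in GCE/GCE. The genotypes did not overlap, with a log2 fold change of -0.44 (SE 0.10), an edgeR adjusted p = 0.103 and a DESeq2 adjusted p = 0.023. Beside DESeq2, it passed in edgeR with transcript length offsets (adjusted p = 0.090), without GCE/+ replicate 2 (0.036) and without GCE/GCE replicate 1 (0.078). Its gene is on chromosome 2, 164424247 to 164443887 on the minus strand (GRCm38). The 250 bases before its RefSeq start hold 4 GC boxes and no purine box, in capitals as above. This window lies inside the gene coordinates just given, since GENCODE and RefSeq place the start differently.
Sdc4, chr2:164443189-164443438, minus strand: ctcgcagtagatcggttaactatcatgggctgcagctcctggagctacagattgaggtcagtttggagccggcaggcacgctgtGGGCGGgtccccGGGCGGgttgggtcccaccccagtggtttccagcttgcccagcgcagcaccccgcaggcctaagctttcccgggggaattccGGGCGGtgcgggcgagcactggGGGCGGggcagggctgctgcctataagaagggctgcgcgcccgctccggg

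Sdc1 and Sdc3 overlapped between genotypes. Sdc1, the main syndecan of epithelia, was at 212 and 202 CPM in GCE/+ and 194 and 207 CPM in GCE/GCE (log2 fold change -0.05, 95% interval -0.24 to 0.14, edgeR adjusted p = 0.950), and Sdc3, known from nerve and limb cartilage, at 266 and 281 against 281 and 284 CPM (log2 fold change 0.05, 95% interval -0.14 to 0.23, edgeR adjusted p = 0.949). Within the syndecan pool in CPM per kb, Sdc2 held 17.6% and 16.5% in GCE/+ and 23.9% and 23.9% in GCE/GCE, and Sdc4 held 10.2% and 9.27% against 7.06% and 6.56%. The pool itself was 167 and 162 CPM per kb in GCE/+ and 171 and 177 in GCE/GCE.

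**Figure D5:**
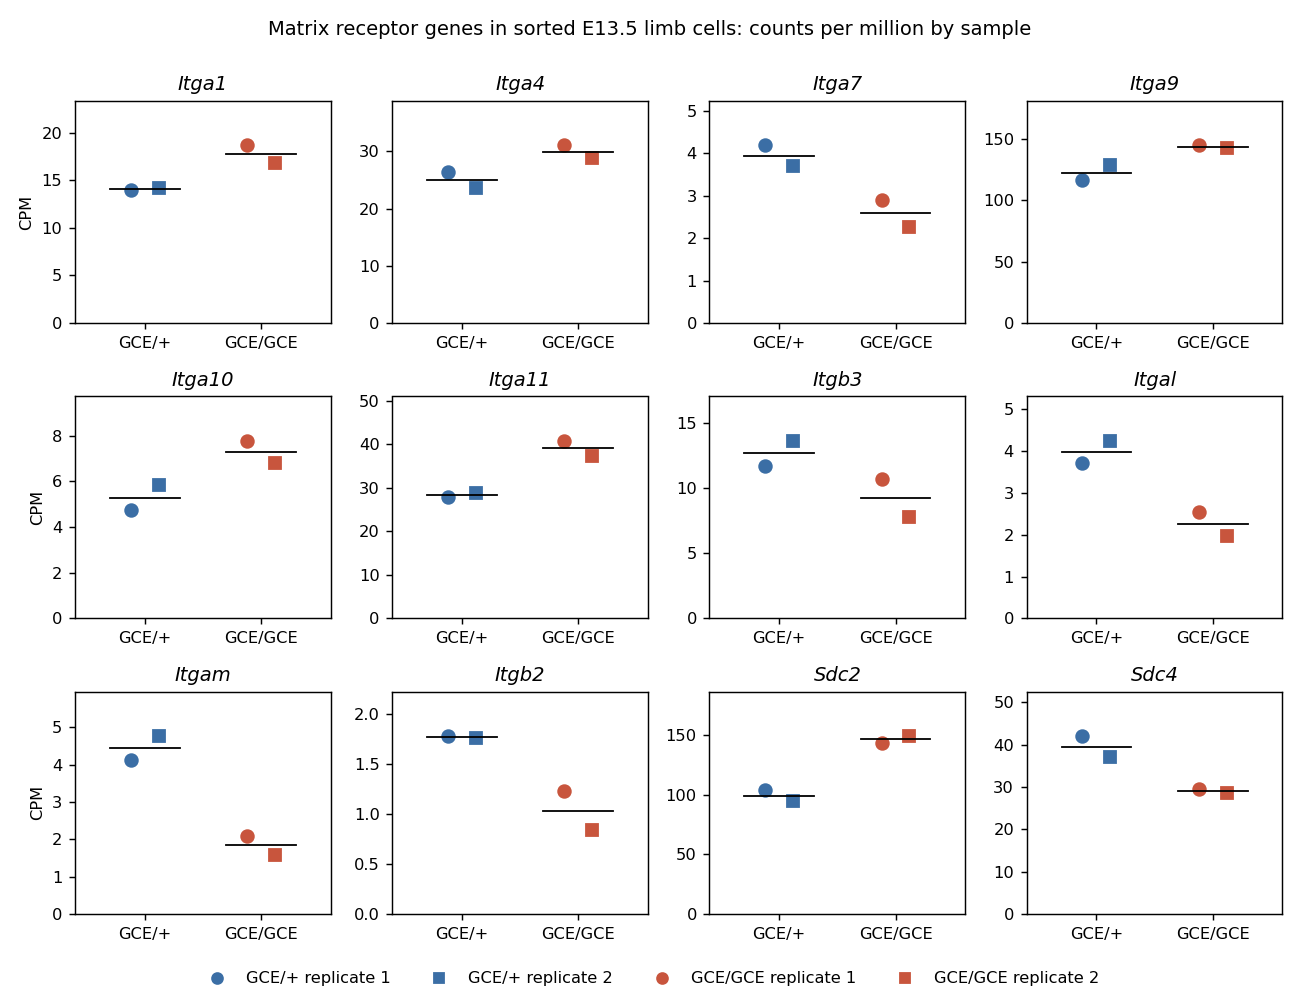
CPM in each of the 4 samples for the 12 receptor genes with an unadjusted edgeR p under 0.05, on axes that start at 0, with the mean of each genotype as a black line. In every panel both GCE/GCE points lie on one side of both GCE/+ points, above for Itga1, Itga4, Itga9, Itga10, Itga11 and Sdc2 and below for the other 6. The genes were picked by the p of this same difference, so the separation is not a further result.

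Of the discoidin domain receptors, Ddr2, the form of mesenchyme, was at 396 and 467 CPM in GCE/+ and 427 and 435 CPM in GCE/GCE (log2 fold change -0.003, 95% interval -0.24 to 0.23, edgeR adjusted p = 0.997). Ddr1 was at 59.6 and 60.8 against 56.1 and 55.5 CPM, and did not pass. Dag1, which links laminin to the cytoskeleton through the dystrophin complex, was at 127 and 140 CPM in GCE/+ and 153 and 143 CPM in GCE/GCE (log2 fold change 0.15, 95% interval -0.05 to 0.35, edgeR adjusted p = 0.684).

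Cd44 differed widely between embryos of one genotype. It was at 65.1 and 43.9 CPM in GCE/+ and at 82.0 and 54.1 CPM in GCE/GCE, so replicate 1 was high in both genotypes and the groups overlapped (log2 fold change 0.32, SE 0.22, edgeR adjusted p = 0.738). The value rested on single libraries: it was 0.59 without GCE/GCE replicate 2 (edgeR adjusted p = 0.00499) and -0.02 without GCE/GCE replicate 1.

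Inside the cell, integrin tails are joined to actin by talins, kindlins, vinculin, filamin and other adaptors. Of 26 tested adaptor genes none passed in edgeR, against 1.82% of all genes, and their median log2 fold change was 0.02. An unadjusted edgeR p under 0.05 was found for 7 (26.9%), against 10.5% of all genes. DESeq2 called 2 (7.69%), against 3.18% of all genes. Fermt3, the kindlin of blood cells, was at 8.79 and 9.54 CPM in GCE/+ and 6.03 and 3.87 CPM in GCE/GCE (log2 fold change -0.89, edgeR adjusted p = 0.116, DESeq2 adjusted p = 0.00859). Tns3, a tensin that binds beta tails, was at 298 and 332 against 409 and 414 CPM (log2 fold change 0.38, edgeR adjusted p = 0.117, DESeq2 adjusted p = 0.010).

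The most abundant adaptor, Flna, was at 1233 and 1392 CPM in GCE/+ and 1368 and 1314 CPM in GCE/GCE, and Actn4 and Vcl overlapped likewise. Without GCE/+ replicate 2, 3 adaptors passed, namely Actn1, Tln2 and Tns3, all as higher. Without GCE/GCE replicate 1, 4 passed as lower, which were Fermt3, Parvg, Ptk2b and Tgfb1i1; these genes were picked out after their values were seen. Fermt3 and Parvg belong to blood cells. The macrophage marker sums are given above, and the part of such cells in the values of Fermt3 and Parvg was not tested.

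On the ligand side, 4 of 38 tested matrix genes passed (10.5%, against 1.82% of all genes), 3 higher and 1 lower. Their median log2 fold change was -0.03 over the 38. Tnc, tenascin C and a ligand of alpha 9, rose from 340 and 351 CPM to 479 and 458 CPM (log2 fold change 0.44, edgeR adjusted p = 0.068). Lama2, the laminin chain of the muscle basement membrane, rose from 47.6 and 46.4 CPM to 65.9 and 63.9 CPM (log2 fold change 0.47, edgeR adjusted p = 0.049). Vtn, vitronectin and a ligand of alpha v, fell from 1.43 and 0.841 CPM to 0.396 and 0.245 CPM (log2 fold change -1.84, edgeR adjusted p = 0.085).

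Each of these 3 calls was lost in some settings. The edgeR adjusted p of Tnc was 0.123 without GCE/+ replicate 1, 0.166 without GCE/GCE replicate 1 and 0.120 without a filter on low counts. For Lama2 it was 0.182 with transcript length offsets and 0.104 without a filter. For Vtn it was 0.297 without GCE/+ replicate 1, 0.178 without a filter, 0.107 with upper quartile normalization and 0.1002 with transcript length offsets.

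The main collagen and fibronectin genes did not pass in edgeR. Col3a1 was at 9549 and 8787 CPM in GCE/+ and 7716 and 6845 CPM in GCE/GCE (log2 fold change -0.33, edgeR adjusted p = 0.684, DESeq2 adjusted p = 0.056). Col1a1, Col1a2 and Fn1, the fibronectin gene, overlapped between genotypes, Fn1 at 2157 and 2389 against 2596 and 2251 CPM. DESeq2 called 8 ligands (21.1%, against 3.18% of all genes), adding Col3a1, Spp1 and Tgfb1 as lower and Tgfbi as higher. The edgeR count was 7 without GCE/+ replicate 2, 7 without GCE/GCE replicate 2, 6 without GCE/GCE replicate 1 and 1 without a filter on low counts.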

How the data were processed

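RNA of fluorescence-sorted E13.5 limb cells was sequenced as 50-bp paired reads (TruSeq v2, unstranded). The authors mapped reads to mm9 with TopHat2 and counted them with HTSeq (intersection-strict, UCSC genes), and the deposited values are raw counts per gene symbol; tool versions are not given in the sources used here. From these counts, edgeR 4.0.16 (TMM, filterByExpr, quasi-likelihood F test, R 4.3.3) was fitted to all genes with genotype only, two-sided, with Benjamini-Hochberg adjustment. SE is the absolute log2 fold change divided by the square root of F. DESeq2 1.42.0 and other normalizations, filters, offsets and left-out samples were alternatives. The script was tested on simulated data. CPM are TMM-scaled. Lengths and positions came from GENCODE M21 (GRCm38) by symbol (98.0% of symbols matched), without conversion of mm9 coordinates. Genes named in full had an adjusted p under 0.1 in either tool, an unadjusted p under 0.05, or were among the 8 highest per length; Cd44 was added after its values were seen. Members and gene lists were chosen with earlier results of these data known. Counting floors cover counting error only. Some genes of the lists are counted but not reported here by name.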

Additional observations from a re-analysis of the deposited data

How the results depend on the processing

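With 2 embryos per genotype, leaving out 1 library changed the sign or the call of 10 of the 20 genes refitted, and low-count chains (under 1 CPM) could show only large changes. Over all genes 285 passed, 502 with DESeq2, 127 without a filter on low counts and 130 at an adjusted p under 0.05. The threshold counts over left-out libraries ran from 199 to 961 for all genes, 2 to 6 for the receptor genes, 0 to 4 for adaptors and 3 to 7 for ligands. Adaptors numbered 2 with DESeq2 and 1 with transcript length offsets, and ligands 8 with DESeq2, 1 without a filter on low counts and 2 at an adjusted p under 0.05. Receptor genes separate between genotypes numbered 10 to 16 as higher and 10 to 14 as lower over left-out libraries, where separation needs fewer samples. The leukocyte median ran from -1.02 to -0.53, the mesenchymal median from 0.02 to 0.18, and that of the other receptors from -0.0089 to 0.076; the latter was 0.0058 with upper quartile normalization and -0.0098 with transcript length offsets. Of 240 refits of 20 named genes under 12 alternatives, 221 kept direction and side of the threshold, 9 newly passed, 4 no longer passed and 6 reversed. The reversals were of Ddr2 (0.0023 with the replicate block) and, over left-out libraries, of Ddr2 (-0.12 to 0.12), Sdc3 (-0.00045 to 0.087), Itga5 (-0.073 to 0.010) and Cd44 (-0.016 to 0.63). The cause of these differences was not tested.

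Replicate numbers did not pair the samples: deviations of same-numbered samples correlated at -0.004 over 11180 genes. With the replicate block, 290 genes, 2 receptor genes, 0 adaptors and 4 ligands passed; Itga11 (adjusted p = 0.115) was the receptor no longer called, and Tnc (0.1098) was not called either. The legacy quasi-likelihood fit was added after seeing the data and gave 279 genes and 3 receptor genes.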
